A study of Mus musculus with 6 samples.

Results

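Collagen chains are the products of a large gene family, and the chains described here are all those of the mouse tables except the cartilage collagens. Members were the gene symbols made of Col, a number, the letter a and a number, without Col2a1, Col9a1, Col9a2, Col9a3, Col11a1 and Col11a2. They were 38 of 44 collagen symbols and of 23443 symbols in all. They were sorted by class into 8 fibrillar, 9 basement membrane, 6 FACIT (fibril-associated collagens with interrupted triple helices) and 15 other collagens. A gene's level was its FPKM (fragments per kilobase of transcript, adjusted for library size) summed over its transcripts.

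The cells were RFP-positive cells sorted from dissected palatal shelves of mouse embryos on a mixed background. Mutant embryos were Osr2RFP/- and control embryos Osr2RFP/+, so every embryo carried the Osr2RFP allele and the controls also a wild-type one. Whether the Osr2RFP allele makes Osr2 protein is not stated in the labels. There was 1 mutant and 1 control library at embryonic day 12.5 (E12.5) and 2 of each at E13.5. Osr2 encodes a zinc finger transcription factor of the palatal mesenchyme, and the RFP gate selects only cells in which its locus is active. No label says how many embryos stand behind a library, so the tests measure the spread between these libraries, which may be technical.

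Collagens are secreted as trimers whose chains wind around each other, which requires a glycine in each triplet of residues of the winding stretch. Fibrillar collagens (types I, III, V, XXIV and XXVII here) assemble into banded fibrils that bear load. Type IV chains form the sheet of basement membranes, where types VII, XV and XVIII also reside or attach. FACITs lie on the surface of fibrils, type VI forms beaded filaments, type VIII forms hexagonal networks, and types XIII, XVII, XXIII and XXV span the cell membrane. In the embryonic palate the mesenchyme is a main producer of fibrillar collagen, and bone of the hard palate later forms within it.

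The coding sequences show a property that sets the fibrillar class apart. Over the 38 members, read from GENCODE vM21 transcripts of GRCm38, the longest uninterrupted row of triplets that begin with a glycine codon spanned 216 to 344 triplets in fibrillar collagens, with a median of 338. It spanned 30 to 75 in basement membrane collagens, 32 to 113 in FACITs and 23 to 87 in the other collagens. The 90 bases below end the longest row in 6 members whose levels carry the results. Each is 5′ to 3′ on the coding strand, capitals mark the glycine codons of the last 7 triplets, and the 9 codons that follow are in lower case.
Col1a1: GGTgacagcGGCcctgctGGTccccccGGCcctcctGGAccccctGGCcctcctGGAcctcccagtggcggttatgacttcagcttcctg
Col3a1: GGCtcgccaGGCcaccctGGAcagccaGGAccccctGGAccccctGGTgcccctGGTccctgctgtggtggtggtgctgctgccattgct
Col12a1: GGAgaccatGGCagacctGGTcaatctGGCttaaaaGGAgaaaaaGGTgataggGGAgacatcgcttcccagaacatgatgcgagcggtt
Col4a1: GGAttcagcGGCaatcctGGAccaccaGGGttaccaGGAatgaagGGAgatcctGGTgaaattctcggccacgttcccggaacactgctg
Col8a1: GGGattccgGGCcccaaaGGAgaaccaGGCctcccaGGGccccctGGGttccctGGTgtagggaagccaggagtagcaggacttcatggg
Col6a3: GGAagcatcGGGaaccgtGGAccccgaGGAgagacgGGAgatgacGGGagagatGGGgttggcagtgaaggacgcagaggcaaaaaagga
Col1a1 ends the row with repeats of glycine followed by proline codons (ccn), in the window from codon 1161 onward. Its row held 338 triplets. In Col12a1 the longest row held 32 triplets and rows of 5 or more took 8.12% of its 3066 codons, against 73.3% in Col1a1 and 58.8% in Col8a1. Most of the Col12a1 chain is therefore outside the collagenous stretch.

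The 6 libraries held an estimated 14100000 to 18000000 fragments each and 10261 to 10478 genes at 1 FPKM or more. Osr2 itself stood at 68.5 and 88.4 FPKM in the E13.5 mutants against 138 and 152 in the controls, and at 163 against 215 at E12.5. Xist was at 129 to 141 FPKM in both E12.5 libraries and in E13.5 mutant replicate 2 and at 0.0194 or less in the other 3, so the sex of the embryos differed between libraries of the same group. The 6 mesenchyme markers summed to 317 to 427 FPKM. Endothelial markers summed to 0.887 to 1.58 FPKM, with all 10 under 1 FPKM in every library, glial markers to 0.494 to 1.34 and skeletal muscle markers to 0.589 to 2.45. Leukocyte markers summed to 2.25 to 4.76, oral epithelial markers to 2.80 to 6.27, and pericyte and smooth muscle markers to 2.66 to 8.07. Erythroid markers summed to 263 to 741 FPKM and neuronal markers to 33.7 to 90.6. The part of these markers in the results was not tested. In such bulk samples, fewer cells of a type and less RNA per cell cannot be told apart.

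Collagen transcripts were a small share of the FPKM in these cells, and the share was higher in the E13.5 libraries. The 38 members summed to 786 FPKM in the E12.5 mutant library and 618 in the E12.5 control library. At E13.5 they summed to 1045 and 1099 in the mutants, against 952 and 929 in the controls. All 4 E13.5 libraries were above both E12.5 libraries, and at each age the mutants were above the controls. In FPKM, the members made up 0.414% and 0.399% of the library at E12.5 and 0.570% to 0.678% at E13.5. In estimated fragments, which also count length, they made up 0.918% and 0.852% at E12.5 and 1.25% to 1.41% at E13.5. Fibrillar chains took 64.9% to 67.8% of the collagen FPKM in every library. Basement membrane chains went from 8.19% and 8.60% at E12.5 to 4.62% to 5.23% at E13.5. The other collagens took 23.03% and 24.2% at E12.5 and 27.2% to 28.2% at E13.5.

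FACITs were the smallest class, and the one whose share differed most between genotypes at E13.5. They took 0.542% and 0.571% of collagen FPKM at E12.5, 2.67% and 2.02% in the E13.5 mutants, and 1.27% and 1.16% in the E13.5 controls. The E13.5 mutant libraries summed to 27.9 and 22.2 FPKM of FACIT chains and the controls to 12.1 and 10.8. Most of that difference came from Col12a1, with means of 16.8 FPKM in the mutants and 5.03 in the controls. Col16a1 was at 7.19 and 4.93, and Col14a1 was lower in the mutants, at 0.984 and 1.37. On the log2 scale, the mutants were above the controls by 1.13 for FACITs, 0.18 for fibrillar, 0.17 for other and 0.10 for basement membrane chains, values given as descriptions.

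Of the 38 members, 23 reached 1 FPKM in at least 2 libraries and were tested. They were 7 of 8 fibrillar, 4 of 9 basement membrane, 3 of 6 FACIT and 9 of 15 other collagens. The 15 not tested were Col5a3 among fibrillar chains, Col4a3, Col4a4, Col4a6, Col15a1 and Col18a1 of the basement membrane, the FACITs Col19a1, Col20a1 and Col22a1, and Col6a4, Col6a5, Col10a1, Col13a1, Col17a1 and Col28a1. Col13a1, a membrane-spanning chain, reached the highest value among them, 1.24 FPKM in E13.5 mutant replicate 2. Col10a1, the chain of hypertrophic cartilage, was at 0.0493 to 0.145 FPKM, and its locus lies wholly within that of Nt5dc1, so its reads are of uncertain assignment. Col17a1, of the junction between epithelium and matrix, was at 0.132 to 0.446 FPKM. Col6a4 was singled out after its values were seen: it was at 0.0695 and 0.0656 FPKM in the E13.5 mutants, against 0.531 and 0.487 in the controls. These levels correspond to at most an estimated 155 fragments, and the difference was not tested.

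**Figure D1:**
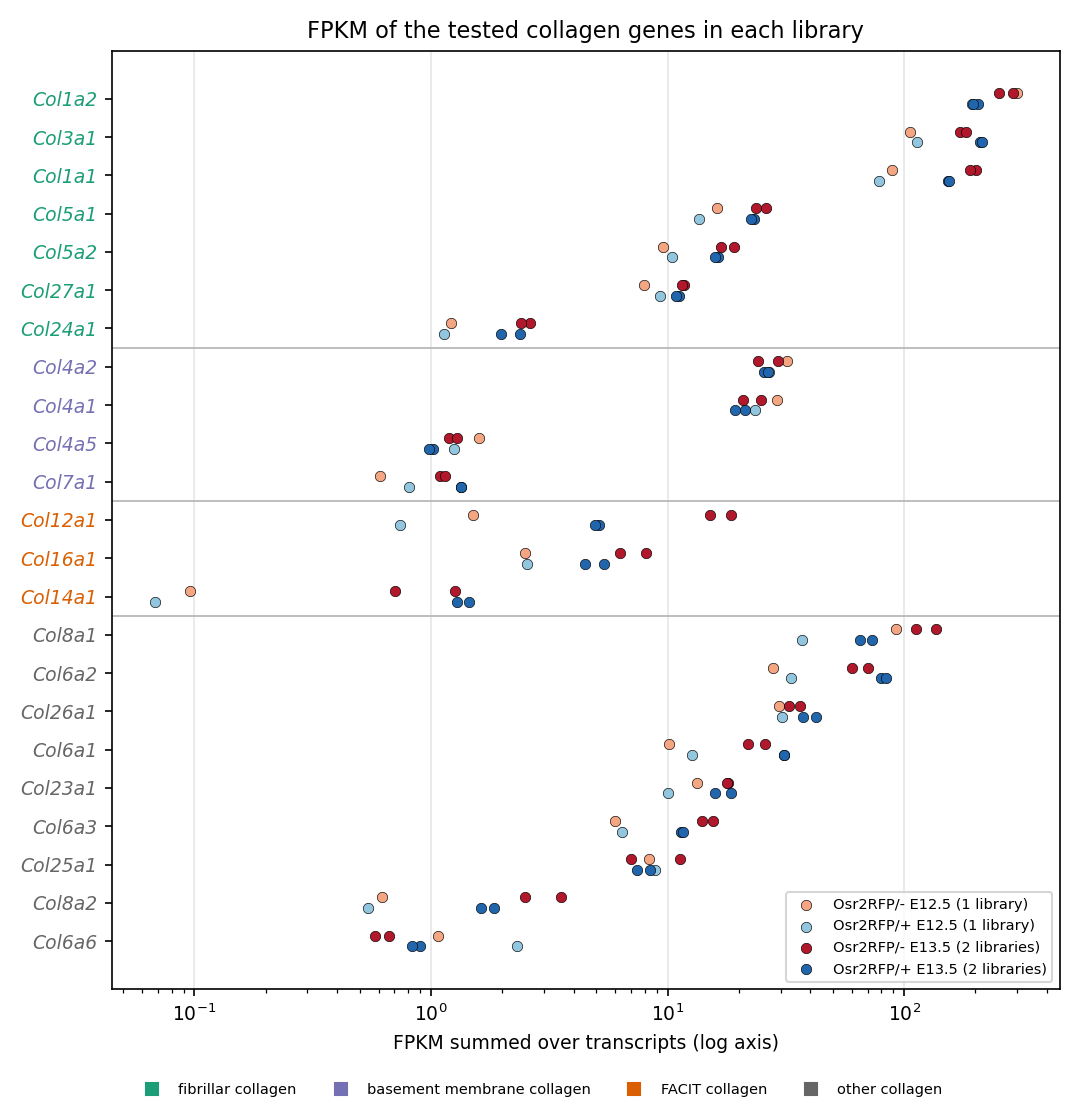
FPKM of the 23 tested collagen genes in each of the 6 libraries, on a log axis, grouped by class and ordered by mean level. Each point is 1 library. Col1a2, Col3a1 and Col1a1 lead, Col12a1 and Col14a1 span the widest ranges, and Col4a1 and Col4a2 stay within 19.3 and 32.1 FPKM.

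The genotype comparison at E13.5 asks which collagens differ between Osr2RFP/- and Osr2RFP/+ cells. Of the 23 tested members, 2 rose in mutants, Col12a1 and Col8a1, and none fell, where 1.29% of all 10799 tested genes were called (0.852% higher, 0.435% lower). At an unadjusted p under 0.05 there were 9 members, against 9.24% of all genes. In 12 members both mutants lay above both controls, which held for 24.8% of all genes, and in 7 both lay below, which held for 13.2%. The median difference was 0.14 on the log2(FPKM + 1) scale over the members and 0.04 over all genes tested. Tests here and below were limma moderated tests with Benjamini-Hochberg adjustment over all genes and a threshold of 0.05.

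Col12a1 (chromosome 9, 79598991 to 79718678, mm10) encodes the chain of type XII collagen, a FACIT of tendon, ligament and bone surfaces. It stood at 18.4 and 15.1 FPKM in the E13.5 mutants, against 5.11 and 4.95 in the controls, and at 1.51 in the mutant and 0.741 in the control at E12.5. The 2 mutants were well apart from the 2 controls, and both E12.5 libraries were below all of them. The means at E13.5 were 16.8 ± 2.37 and 5.03 ± 0.108 FPKM (SD, n = 2 each), and the log2 difference was 1.55 (SE 0.13, limma adjusted p = 0.000728). With each library left out in turn the difference was 1.42 to 1.69, and all 6 such fits kept the call.

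The other 2 tested FACITs did not pass. Col16a1, the chain of a minor FACIT, stood at 8.10 and 6.28 FPKM in the E13.5 mutants, against 5.37 and 4.49 in the controls, without overlap, but its difference of 0.46 did not pass (SE 0.15, adjusted p = 0.279). Col14a1, whose type XIV chain binds fibrils like type XII, stood at 1.27 and 0.701 FPKM in the mutants, against 1.45 and 1.29 in the controls. Its difference had the opposite sign, -0.27 (SE 0.17, adjusted p = 0.759).

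Col8a1 (chromosome 16, 57624256 to 57754737) encodes a chain of type VIII collagen, a short network-forming collagen known from vessel walls and the cornea. It stood at 112 and 136 FPKM in the E13.5 mutants, against 72.8 and 65.3 in the controls. It stood at 92.1 FPKM in the E12.5 mutant, against 36.9 in the E12.5 control. Mutants were above controls at both ages, and the E12.5 mutant was above both E13.5 controls. The difference at E13.5 was 0.83 (SE 0.15, adjusted p = 0.0379), and it lost its call without control replicate 1 (adjusted p = 0.186) or control replicate 2 (0.402) with a stricter filter or any other scaling (0.0503 to 0.0721), and with the highest transcript of each gene (0.134).

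Its partner chain was far lower. Col8a2 stood at 3.53 and 2.50 FPKM in the E13.5 mutants, 1.84 and 1.62 in the controls, and 0.620 and 0.540 at E12.5. Its difference of 0.55 at E13.5 did not pass (SE 0.16, adjusted p = 0.195). Endothelial markers were all under 1 FPKM in each library, as were 5 of the 7 pericyte and smooth muscle markers. The exceptions, Cspg4 and Rgs5, reached 3.66 and 2.67 FPKM. At E13.5 Rgs5 was lower in both mutants (1.45 and 1.70 FPKM) than in the controls (2.25 and 2.67), and Cspg4 overlapped between genotypes. The part of these markers in the type VIII values was not tested.

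Type I collagen, the main fibrillar collagen of bone, skin and tendon, is built of the chains of Col1a1 and Col1a2. Col1a1 stood at 202 and 190.0 FPKM in the E13.5 mutants, against 154 in both controls, and at 88.4 and 78.2 in the E12.5 mutant and control. Col1a2 stood at 251 and 289 FPKM in the E13.5 mutants, against 206 and 195 in the controls, and at 299 and 193 at E12.5. For both chains the mutants were above the controls at each age. At E12.5, however, Col1a1 differed by 0.17 on the log2 scale, no more than the median gene did between these libraries (0.18). The differences at E13.5, 0.35 for Col1a1 (SE 0.14, adjusted p = 0.479) and 0.43 for Col1a2 (SE 0.16, adjusted p = 0.396), did not pass.

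Col3a1, whose type III chain forms fibrils of soft tissue together with type I, lay the other way. It stood at 171 and 182 FPKM in the E13.5 mutants, 210 and 214 in the controls, and 106 and 113 in the E12.5 mutant and control. Both mutants were below both controls, with a difference of -0.26 that did not pass (SE 0.14, adjusted p = 0.686). The ratio of Col3a1 to Col1a1, both per length, was 0.850 and 0.959 in the E13.5 mutants against 1.37 and 1.39 in the controls, and 1.19 against 1.44 at E12.5. Neither chain passed on its own, and a test of 2 libraries against 2 cannot give a permutation p under 0.333 for such a ratio.

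The chains of type V collagen, which starts fibrils of type I, did not pass. Col5a1 stood at 23.7 and 26.02 FPKM in the E13.5 mutants, against 23.1 and 22.5 in the controls, a difference of 0.12 (SE 0.13). Col5a2, the neighbour of Col3a1 on chromosome 1, stood at 16.9 and 19.2 FPKM in the mutants, against 16.4 and 15.8 in the controls, a difference of 0.15 (SE 0.13). The mutants were above the controls for both. Col24a1 and Col27a1, minor fibrillar chains, differed by 0.14 and 0.08, and the adjusted p of these 4 chains ranged from 0.842 to 0.915.

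Type VI collagen forms beaded filaments around cells, with Col6a1 and Col6a2 chains joined to a longer chain such as that of Col6a3. Col6a1 stood at 25.8 and 21.9 FPKM in the E13.5 mutants, against 31.0 in each control. Col6a2 stood at 70.1 and 60.4 FPKM in the mutants, against 79.7 and 83.6 in the controls. Both chains were below the controls in both mutants, while Col6a3 was above them, at 15.5 and 14.0 against 11.4 and 11.6 FPKM. The differences were -0.37 for Col6a1 (SE 0.13, adjusted p = 0.388), -0.32 for Col6a2 (SE 0.14, adjusted p = 0.529) and 0.33 for Col6a3 (SE 0.12, adjusted p = 0.416), and none passed.

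The ratio of Col6a1 to Col6a2, which lie near each other on chromosome 10, was 0.362 to 0.389 over all 6 libraries. The ratio of Col6a3 to Col6a2 was 0.221 and 0.231 in the E13.5 mutants, against 0.143 and 0.139 in the controls, and 0.215 and 0.192 at E12.5. The first ratio overlapped between ages and was lower in each mutant (0.363, 0.368 and 0.362) than in every control (0.379, 0.389 and 0.371), by a narrow margin. The second was higher in each mutant than in every control. The smallest p that a two-sided exact permutation test of 3 mutants against 3 controls can give is 0.1, and no other test of the ratios was run. Col6a6, another of the longer chains of type VI, stood at 0.664 and 0.579 FPKM in the E13.5 mutants, against 0.900 and 0.834 in the controls (difference -0.20, SE 0.13, adjusted p = 0.780).

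None of the 4 tested basement membrane chains passed at E13.5. Col4a1 stood at 20.9 and 24.7 FPKM in the E13.5 mutants, against 21.2 and 19.3 in the controls, and Col4a2 at 24.1 and 29.3 against 25.5 and 26.4. The groups overlapped for these chains, with differences of 0.16 (SE 0.14) and 0.03 (SE 0.14). Col4a5, an X-linked chain of type IV, differed by 0.16 (SE 0.13) and Col7a1, the chain of anchoring fibrils beneath epithelium, by -0.14 (SE 0.13). Among the membrane-spanning and remaining chains, Col23a1 differed by 0.06, Col25a1 by 0.15 and Col26a1 by -0.20, with SE of 0.13 to 0.19.

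**Figure D2:**
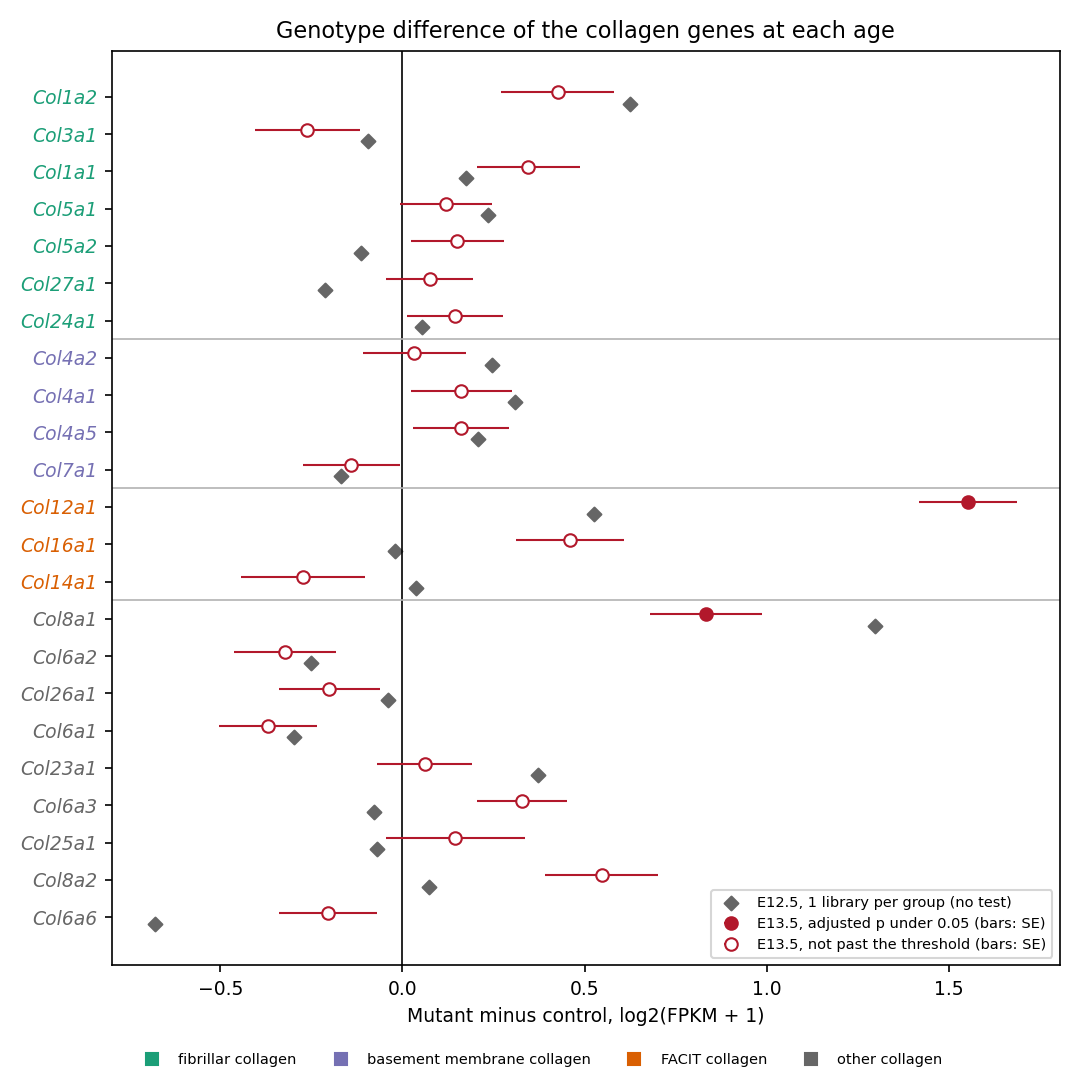
Mutant minus control difference of each tested collagen on the log2(FPKM + 1) scale: circles with SE bars for E13.5 (2 libraries per genotype) and diamonds for E12.5 (1 library per genotype, no test). Filled circles are Col12a1 (1.55) and Col8a1 (0.83). The 7 members at the left of 0 at E13.5 include Col3a1, Col6a1 and Col6a2.

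Sums of several lists of cell type markers also differed between the genotypes. The 8 osteoblast markers summed to 101 and 109 FPKM in the E13.5 mutants, against 35.5 and 30.2 in the controls, and to 52.4 against 20.1 at E12.5. Runx2 and Alpl carried these sums. Sp7 stood at 7.02 and 5.03 FPKM in the E13.5 mutants, against 1.23 and 1.48 in the controls, and at 0.693 against 0.704 at E12.5. The late markers Ibsp, Bglap, Spp1, Dmp1 and Phex were under 1 FPKM in every library. Chondrocyte markers summed to 87.5 and 109.8 FPKM in the E13.5 mutants, against 74.6 and 57.1 in the controls, and to 155 against 92.1 at E12.5. Col2a1 and Sox9 carried the chondrocyte sums, and Sox9 overlapped between genotypes at E13.5. Acan, Col11a2, Matn1 and Hapln1 were under 1 FPKM in every library. Neuronal markers summed to 79.5 and 90.6 FPKM in the E13.5 mutants, against 54.4 and 50.3 in the controls, and to 43.5 against 33.7 at E12.5. Nefl, Nefm and Gap43 carried the neuronal sums. Tubb3 overlapped between genotypes at E13.5, and the other 5 neuronal markers were under 1 FPKM in every library. The mesenchyme markers also summed higher (385 and 378 against 327 and 328, and 427 against 317). Of these, Vim, Twist1 and Prrx2 were higher in both E13.5 mutants, Prrx1 overlapped, and Pdgfra and Msx1 were lower in both. At E13.5 the erythroid markers summed lower (471 and 263 against 592 and 499.7). So did the pericyte and smooth muscle markers (6.53 and 5.59 against 7.27 and 8.07) and the oral epithelial markers (5.42 and 5.13 against 6.27 and 6.03). The part of all these markers in the collagen values was not tested.

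At E12.5, where 1 library stood for each genotype and no test was possible, differences were described by size. Of the 15 members with 5 FPKM or more in either library, 1 differed by more than 1 on the log2 scale, Col8a1 at 1.30. Over all 6100 genes at that level, 0.689% were past this size upward and 0.377% downward. The median gene differed by 0.18 between these libraries, and relative to it Col8a1 was higher by 1.11. With libraries scaled to the same FPKM sum, the median gene was at -0.06 and Col8a1 at 1.01. Col12a1 differed by 0.53 at E12.5, with both values near 1 FPKM.

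The members ranged from -0.68 (Col6a6) to 1.30 at E12.5, with a median of 0.04 against 0.18 over all genes tested. Col1a2 differed by 0.63 and Col23a1, a membrane-spanning chain, by 0.37. Col23a1 stood at 13.3 FPKM in the mutant, against 10.1 in the control. Col6a1 and Col6a2 were lower in the mutant at this age too, by -0.30 and -0.25.

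The additive fit over both ages, whose E13.5 libraries are those of the comparison above, also called Col12a1 (1.21, SE 0.19, adjusted p = 0.0135) and Col8a1 (0.99, SE 0.15, adjusted p = 0.0104), and no member lower. It called 1.44% of all genes (1.08% higher, 0.361% lower), and 8 members had an unadjusted p under 0.05, against 13% of all genes. In this fit Col8a1 kept its call with each library left out in turn (adjusted p up to 0.0397), while Col12a1 lost it without E13.5 mutant replicate 1 (0.106) or control replicate 1 (0.0642). The test of whether the genotype difference itself differed between ages called no member, where 0.037% of genes passed (0.0278% higher, 0.00926% lower). Col12a1 was the only member with an unadjusted p under 0.05 in that test, against 5.81% of all genes, with a value of 1.03 (SE 0.23, limma adjusted p = 0.436).

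The age comparison asks how collagen levels differed between the 2 ages. Of the 23 tested members, 16 passed, where 16.7% of all genes did. At E13.5, 15 were higher and 1 lower than at E12.5, where 7.45% of all genes were higher and 9.26% lower. At an unadjusted p under 0.05 there were 19 members, against 33.2% of all genes, and in 16 members all E13.5 libraries lay above both E12.5 libraries, against 13.6%. In 1 member, Col6a6, all lay below, against 22.9%. The median was 0.65 over the members and -0.07 over all genes. Age cannot be told apart from the number in the library titles, which is 2962 for both E12.5 libraries and 3047 or 3048 for those of E13.5, and Xist was high in both E12.5 libraries but in only 1 of 4 at E13.5. Pericyte and smooth muscle markers also summed higher at E13.5 (5.59 to 8.07 FPKM against 2.66 and 3.11), as did oral epithelial markers (5.13 to 6.27 against 2.80 and 2.96), neuronal markers (50.3 to 90.6 against 43.5 and 33.7) and skeletal muscle markers (1.65 to 2.45 against 1.03 and 0.589). Erythroid markers summed lower at E13.5 (263 to 592 against 741 and 695). The part of these markers was not tested.

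Col14a1, Col7a1 and Col8a2 reached 1 FPKM only at E13.5 and Col6a6 only at E12.5, so they could hardly have entered the test without differing. Of the 19 members that reached 1 FPKM at both ages, 12 were higher and none lower, where 6.14% of all such genes were higher and 9.37% lower.

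All 3 tested FACITs were called higher by age. Of these, Col14a1 reached 1 FPKM only at E13.5, so that its call is a description. Col12a1 went from 0.741 to 5.11 and 4.95 FPKM in controls, 6.79-fold on their means, and from 1.51 to 18.4 and 15.1 in mutants (age difference 2.31, SE 0.20, adjusted p = 0.00018). Col16a1 went from 2.54 FPKM to 5.37 and 4.49 in controls and from 2.49 to 8.10 and 6.28 in mutants, a difference of 0.98 (SE 0.15, adjusted p = 0.00297) that lost its call without the E12.5 mutant library (0.0561). Col14a1 went from 0.0682 FPKM to 1.45 and 1.29 in controls and from 0.0954 to 1.27 and 0.701 in mutants, a difference of 0.996 (SE 0.15, adjusted p = 0.00322) that its low E12.5 level understates. No E12.5 library overlapped an E13.5 library for any of the 3.

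Of the 7 tested fibrillar chains, 5 were called higher. Col1a1 rose by 1.05 (SE 0.13, adjusted p = 0.00132), Col3a1 by 0.82 (SE 0.14, adjusted p = 0.00464), Col5a2 by 0.71, Col5a1 by 0.65 and Col24a1 by 0.62. Col5a1 stood at 16.1 and 13.5 FPKM in the E12.5 mutant and control and at 22.5 to 26.02 at E13.5. Col5a2 stood at 9.59 and 10.5 FPKM at E12.5 and at 15.8 to 19.2 at E13.5. Col24a1, a chain known from forming bone, stood at 1.21 and 1.13 FPKM and then at 1.98 to 2.61. All E13.5 libraries were above both E12.5 libraries for these 5 chains. Without the E12.5 mutant library Col5a2 and Col24a1 did not pass (adjusted p = 0.0782 and 0.0856), and without the E12.5 control library Col5a1 did not (0.0552).

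Col1a2, the partner of Col1a1, was not called by age. Its age difference was -0.05 (SE 0.15, adjusted p = 0.846), with 299 FPKM in the E12.5 mutant library above all others and 193 in the E12.5 control library close to the E13.5 controls (206 and 195). The ratio of Col1a1 to Col1a2 was 0.296 and 0.405 in the E12.5 mutant and control and 0.657 to 0.805 at E13.5. Col1a1 was thus below Col1a2 per length in every library, and the ages did not overlap. With 4 libraries against 2, the smallest permutation p for this ratio is 0.0667. Col27a1 missed the threshold (0.36, SE 0.11, adjusted p = 0.0518).

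**Figure D3:**
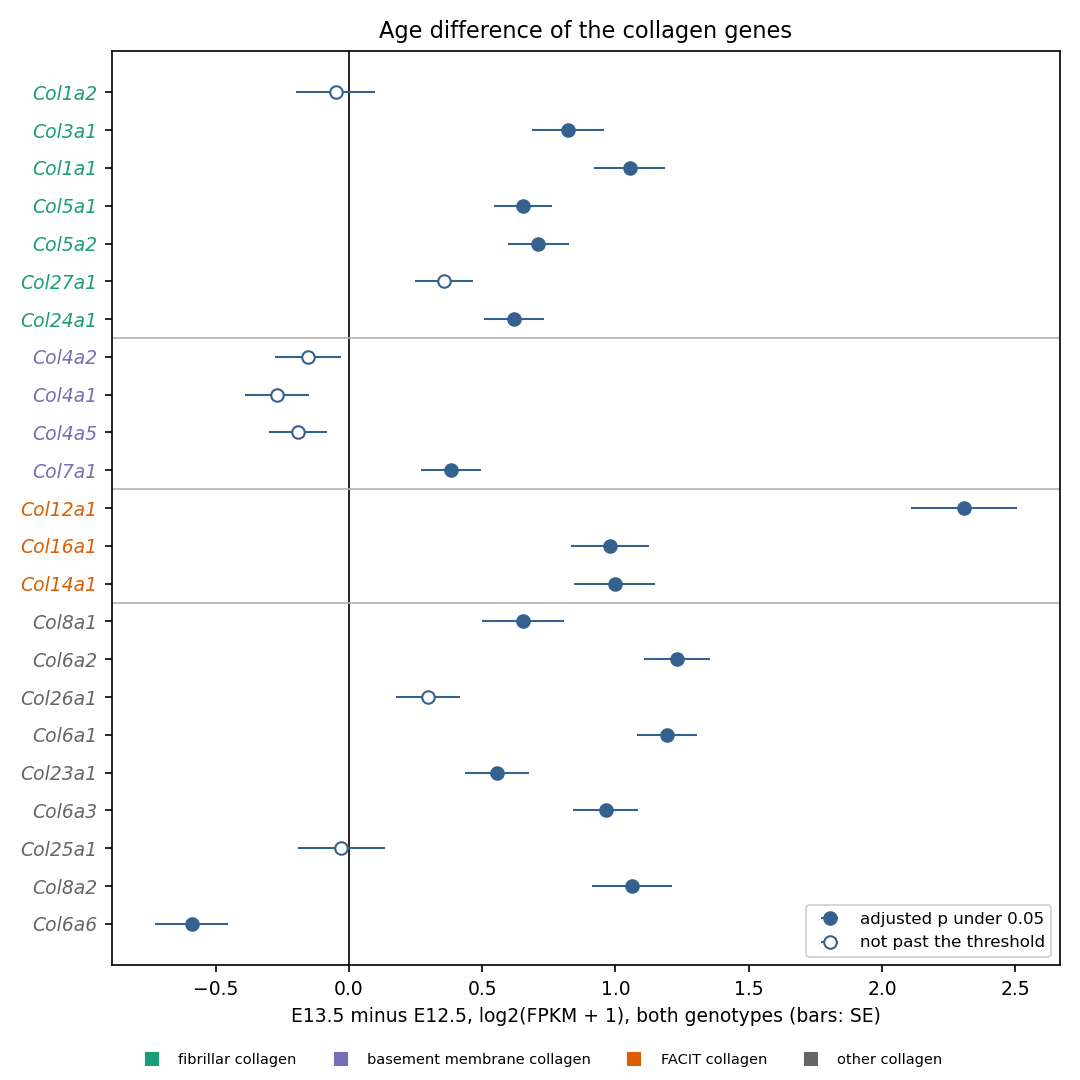
Difference between E13.5 and E12.5 of each tested collagen on the log2(FPKM + 1) scale, from the additive fit over all 6 libraries, with SE bars. Filled circles passed the threshold. All 3 FACITs and 5 of 7 fibrillar chains are filled on the right. Col1a2 and the type IV chains sit near or left of 0, and Col6a6 is the only filled circle on the left. Col14a1, Col7a1 and Col8a2 reached 1 FPKM only at E13.5 and Col6a6 only at E12.5.

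The 3 type VI chains with high levels rose together. Col6a2 went from 27.9 and 33.4 FPKM in the E12.5 mutant and control to 60.4 to 83.6 at E13.5 (1.23, SE 0.12, adjusted p = 0.000378). Col6a1 went from 10.1 and 12.6 FPKM to 21.9 to 31.0 (1.19, SE 0.11, adjusted p = 0.00031). Col6a3 went from 6.00 and 6.39 FPKM to 11.4 to 15.5 (0.96, SE 0.12, adjusted p = 0.00134). In controls Col6a1 and Col6a2 were both 2.45-fold higher on their means at E13.5, and Col6a3 1.80-fold. For Col6a6, which reached 1 FPKM only at E12.5, the age call is a description. Col6a6 fell, from 1.07 and 2.31 FPKM to between 0.579 and 0.900 (-0.59, SE 0.14, adjusted p = 0.0195), and lost its call without the E12.5 control library (adjusted p = 0.218).

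Both type VIII chains were called higher, but Col8a2 reached 1 FPKM only at E13.5, so that its call is a description. Col8a2 rose by 1.06 (SE 0.15, adjusted p = 0.00252), with all E13.5 libraries above both E12.5 libraries. Col8a1 rose by 0.65 (SE 0.15, adjusted p = 0.021), although its ages overlapped, the E12.5 mutant being above both E13.5 controls. It lost that call without the E12.5 control (adjusted p = 0.196) or E13.5 control replicate 1 (0.0606). Col23a1 rose by 0.56 (SE 0.12, adjusted p = 0.0148), from 13.3 and 10.1 FPKM to 15.9 to 18.5. Without the E12.5 control its adjusted p was 0.151.

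Col26a1, a secreted chain first known from reproductive tissue, stood at 29.5 and 30.3 FPKM at E12.5. It then stood at 36.2 and 32.7 in the E13.5 mutants, against 42.4 and 37.2 in the controls. The ages did not overlap, yet its difference of 0.30 did not pass (SE 0.12, adjusted p = 0.119). Col25a1 showed no such order, at 6.98 to 11.2 FPKM over both ages.

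The 3 tested chains of type IV collagen were not called by age, and their differences were negative. Col4a1 stood at 29.1 and 23.3 FPKM in the E12.5 mutant and control and at 19.3 to 24.7 at E13.5 (-0.27, SE 0.12, adjusted p = 0.148). Col4a2 stood at 32.1 and 26.9 FPKM and then at 24.1 to 29.3 (-0.15, SE 0.12, adjusted p = 0.414). Col4a5 stood at 1.60 and 1.25 FPKM and then at 0.984 to 1.29 (-0.19, SE 0.11, adjusted p = 0.254). The ages overlapped for all 3 chains, and none passed. For Col7a1, which reached 1 FPKM only at E13.5, the age call is a description. Col7a1, at 0.605 and 0.806 FPKM and then 1.09 to 1.33, was called higher (0.38, SE 0.11, adjusted p = 0.0438) but lost the call with any 1 library left out (adjusted p 0.0748 to 0.240).

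Col4a1 and Col4a2 are transcribed from a shared stretch in opposite directions, and their ratio was 0.730 to 0.908 in all 6 libraries. Their loci in the tables lie head to head on chromosome 8 (Col4a1 at 11198423 to 11312826, Col4a2 at 11312829 to 11449287). The RefSeq start sites of the GRCm38.p6 table lie 21 bases apart. There the Col4a2 start (11312805) lies inside Col4a1, whose start is 11312826, so that the genes overlap, unlike in the loci above. Windows from 250 bases before to 50 bases after each start overlap too. Both windows are given 5′ to 3′ in the direction of their own gene, chr8:11312777-11313076 on the minus strand for Col4a1 and chr8:11312555-11312854 on the plus strand for Col4a2. Capitals mark CCAAT boxes (CCAAT or ATTGG) and GC boxes (GGGCGG or CCGCCC), searched on both strands.
Col4a1: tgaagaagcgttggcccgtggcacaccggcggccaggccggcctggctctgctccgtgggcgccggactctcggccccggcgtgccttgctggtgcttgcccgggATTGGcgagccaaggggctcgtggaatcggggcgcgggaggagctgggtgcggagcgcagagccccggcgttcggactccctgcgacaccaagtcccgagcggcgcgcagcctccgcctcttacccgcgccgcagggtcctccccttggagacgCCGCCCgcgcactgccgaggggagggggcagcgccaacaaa
Col4a2: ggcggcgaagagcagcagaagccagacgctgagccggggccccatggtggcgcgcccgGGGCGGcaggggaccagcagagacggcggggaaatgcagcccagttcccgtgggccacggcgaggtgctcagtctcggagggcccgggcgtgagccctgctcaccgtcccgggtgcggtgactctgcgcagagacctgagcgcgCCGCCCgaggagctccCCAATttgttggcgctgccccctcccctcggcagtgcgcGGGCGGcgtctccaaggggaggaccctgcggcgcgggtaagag
The Col4a1 window held 1 CCAAT box and 1 GC box and the Col4a2 window 1 and 3, and neither held TATAAA or TTTATA. The GC box of Col4a1 lies in the overlap and is the last GC box of Col4a2 read on the other strand, so it is counted in both windows. A GC box stood in 20 of 33 collagen windows (31 of the 38 members had a window in the RefSeq table), 60.6%, and in 35.7% of all 32851 windows of that length. A CCAAT box stood in 33.3% of the collagen windows and 37.4% of all, TATAAA or its complement in 12.1% and 13.6%, and the Runx core motif TGTGGT or ACCACA in 9.09% and 16.8%. A match of these letters is a description of the window only.

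**Figure D4:**
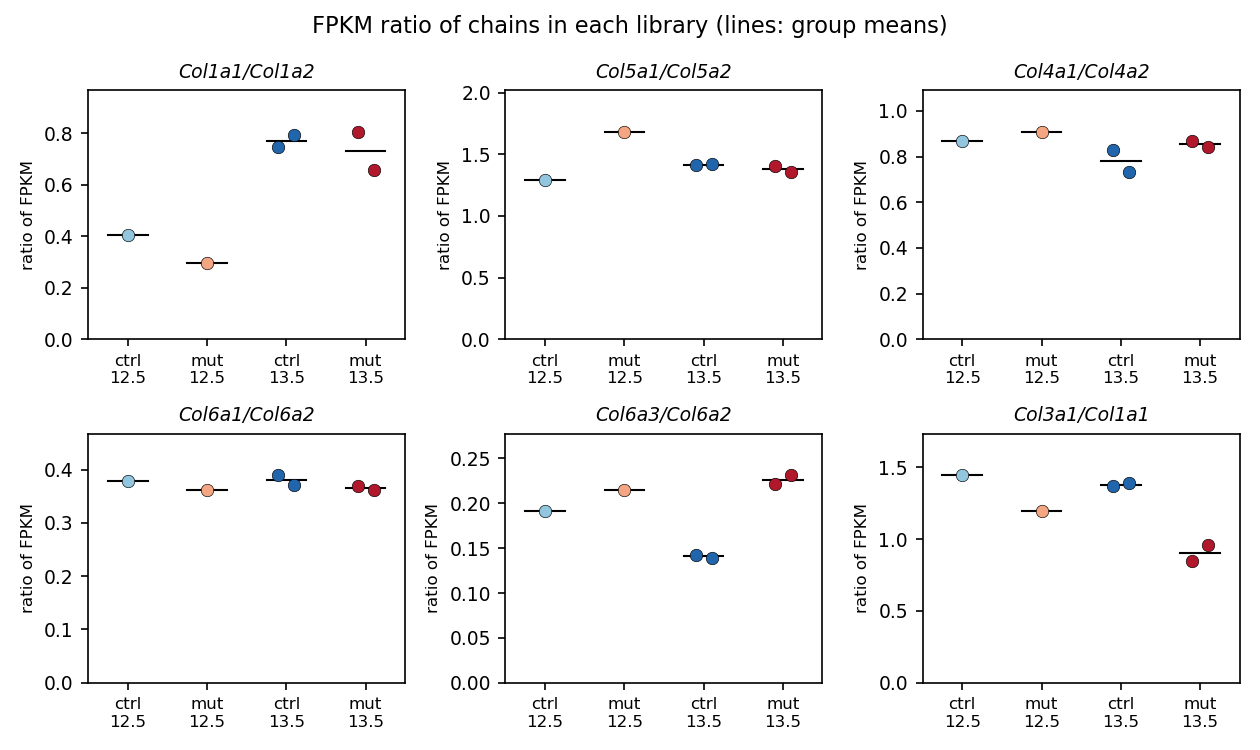
Ratio of the FPKM of 2 chains in each library, by group (ctrl, Osr2RFP/+; mut, Osr2RFP/-; embryonic day below). Points are libraries and lines are group means, with axes from 0. Col1a1/Col1a2 separates the ages, Col3a1/Col1a1 and Col6a3/Col6a2 separate the genotypes at E13.5, and Col6a1/Col6a2 stays between 0.362 and 0.389.

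Genes that make, modify or bind collagen were read from 4 lists. Of 26 tested genes of collagen synthesis and processing, P4ha3 was called at E13.5, where 1.29% of all genes were called (0.852% higher, 0.435% lower). This gene encodes a catalytic subunit of the prolyl hydroxylase that stabilises the collagen trimer, and it stood at 18.5 and 19.6 FPKM in the mutants, against 9.92 and 11.2 in the controls (0.80, SE 0.13, adjusted p = 0.0216). Of 16 tested partners of fibrils, the matricellular gene Thbs2 was higher (1.63, adjusted p = 0.000688) and Podn, a leucine-rich proteoglycan gene, was lower (-0.74, adjusted p = 0.0258). Tnn, also a matricellular gene, stood at 3.16 and 2.79 FPKM in the E13.5 mutants and at 0.277 or less in every other library. It was called higher (1.68, adjusted p = 0.000728), but it passed the filter only through those mutants, so that this value is a description. None of 12 basement membrane partners and none of 5 collagen receptors passed at E13.5. Across both ages the same 4 genes were called, with P4ha3 at 0.91 (adjusted p = 0.00396). For Tnn that call is a description as well. P4ha3 and Podn lost their E13.5 calls without either E13.5 control library, and Podn also without mutant replicate 2 (adjusted p up to 0.187 and 0.143). Thbs2 and Tnn lost their calls across both ages without E13.5 mutant replicate 1 or control replicate 1, and Tnn without mutant replicate 2 (up to 0.185 for both).

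By age, 11 of the 26 synthesis and processing genes were higher and 1 lower, where 7.45% of all genes were higher and 9.26% lower. All 26 reached 1 FPKM at both ages. Creb3l1, a transcription factor known to drive collagen secretion in bone, went from 1.08 and 1.07 FPKM in the E12.5 mutant and control to 13.5 and 11.6 in the E13.5 mutants, against 7.81 and 8.55 in the controls (2.42, SE 0.14, adjusted p = 1.72e-05). Lox, which crosslinks collagen, rose by 1.59 and Adamts2, which trims the amino end of fibrillar procollagen, by 1.09. P4ha3 fell with age (-0.60, adjusted p = 0.0108), the reverse of most of its list, and lost that call without the E12.5 mutant library (0.161).

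Of the 16 fibril partners, 13 were higher at E13.5. However, Dcn, Fmod, Kera, Ogn, Thbs2 and Tnn reached 1 FPKM only at E13.5 and could hardly have entered the test without differing. Of the 10 that reached 1 FPKM at both ages, 7 were higher and none lower, where 6.14% of all such genes were higher and 9.37% lower. Among them was Lum, a small proteoglycan gene, which was higher by 2.16 (adjusted p = 0.00105). Dcn and Ogn, also small proteoglycan genes, were under 1 FPKM in both E12.5 libraries and at 2.12 to 8.77 and 2.99 to 4.39 FPKM at E13.5. Of the 12 basement membrane partners, 5 were higher, among them Lama4 (0.87), Sparc (1.08) and Nid1 (0.63, adjusted p = 0.0857 without the E12.5 control). Lama4 encodes a laminin chain, Sparc a collagen-binding matricellular protein and Nid1 a linker of laminin and type IV collagen. Of the 5 collagen receptors, Itgb1, the integrin subunit shared by the collagen-binding integrins, was higher (0.46, adjusted p = 0.0242), and lost its call without either E12.5 library or either E13.5 control (up to 0.176). Median age differences were 0.39, 0.91, 0.35 and 0.04 for the lists of synthesis, fibril partners, basement membrane partners and receptors, against -0.07 over all genes.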

How the data were processed

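Each of the 6 libraries had its own table of RefSeq transcripts with FPKM computed by the authors and a coverage signal per transcript, both deposited as they stand; the names of the tables give Cufflinks, of unstated version. The submitters' processing notes list TopHat 1.4.1 and Bowtie 0.12.7, beside mm10 and mm9. The deposited coverage served only to estimate fragments, for pairs of reads of 75 bases per the labels. Kits of 2 kinds, Nextera and stranded TruSeq, appear in the labels, so strandedness is unknown. The tables hold no read counts, and so no counting intervals were computed.

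FPKM were summed per symbol, and 25 symbols with a failed estimate were left out. Genes with at least 1 FPKM in at least 2 libraries (10799) entered limma 3.58.1 (R 4.3.3) with an intensity trend on log2(FPKM + 1), a scale that understates changes of low genes. A fit with 1 mean per group gave genotype at E13.5 and the interaction, in which the lone E12.5 libraries are assumed to vary like the others; an additive fit gave genotype across both ages and age. The procedure was tested on simulated data. Named collagens were the 3 highest of each class and all past a threshold. The members, lists and tests were chosen with earlier results of these data known. Alternatives changed the pseudocount, filter, scaling, transcript summary, variance trend and libraries, and, chosen after seeing the data, removed a trend with GC content. The GC values came from GENCODE vM21 transcripts; sequences of promoters came from RefSeq (GRCm38.p6). A further sequence window is not reported here.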

Additional observations from a re-analysis of the deposited data

Results flagged for a closer look

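In 5 collagens the E13.5 mutants lay both on one side of the controls while the E12.5 mutant lay on the other. The share of all genes with such an order was not counted, so the count is a description. The difference of the 2 genotype effects (E13.5 minus E12.5, log2 scale) was 0.48 for Col16a1, 0.41 for Col6a3, 0.29 for Col27a1, 0.27 for Col5a2 and -0.31 for Col14a1. It was tested as an interaction with limma and passed for none (adjusted p 0.837 to 0.893). The E12.5 differences behind it were -0.02, -0.08, -0.21, -0.11 and 0.04, each from 1 library per genotype. Their sides are relative to 0, while the median gene differed by 0.18 between the E12.5 libraries.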

How the results depend on the processing

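No paired analysis was possible because the replicate numbers used here only name libraries. At E13.5 the groups share 1 title number, 3048, whose meaning the labels do not state, and since 3047 holds 1 library, a block on it amounts to the alternative with only 3048. The 2 collagens called by genotype at E13.5 became 0 without the filter and 1, Col12a1, with a filter on the mean of 1 or 5 FPKM, any other scaling or the highest transcript, and 1 to 2 with a library left out. Across both ages the 2 became 0 without the filter, 1 with median of ratios or upper quartile scaling, the highest transcript or only title number 3048 at E13.5, and 1 to 2 with a library left out. By age the 16 became 0 without the filter and 11 to 15 with a library left out. Without the filter 23418 genes were tested, and of all genes 5 in place of 139 were called at E13.5, 0 in place of 156 across both ages and 31 in place of 1804 by age. No collagen passed the interaction under any alternative. The other alternatives kept each count within 1.5 times, and no called value changed sign.

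The E13.5 class difference of the log2 FPKM sum fell from 0.18 to 0.12 (median of ratios) and 0.11 (upper quartile) for fibrillar chains and from 0.17 to 0.11 and 0.10 for other chains. Scaling to the FPKM sum, median of ratios and upper quartile moved the split of all age calls from 804 higher and 1000 lower to 1032 and 714, 1123 and 755, and 1126 and 754, and of both-age genotype calls from 117 and 39 to 78 and 74, 64 and 52, and 61 and 55; the collagens' age calls were then 16 higher, 17 and 17, each with 1 lower. Of age calls, Col16a1, Col5a2 and Col24a1 were lost without the E12.5 mutant library Col5a1, Col23a1, Col6a6 and Col8a1 without the E12.5 control, Col8a1 without E13.5 control replicate 1, and Col7a1 with any 1 library left out.

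For the partner genes (alternatives applied after seeing the data), the 4 calls at E13.5 became 0 without the filter, 1 with a mean of 5 FPKM, 2 with median of ratios, upper quartile or the highest transcript, and 2 to 5 with a library left out. Across both ages the 4 became 0 without the filter, 1 with a mean of 5 FPKM or the highest transcript, 2 with a pseudocount of 5, a mean of 1 FPKM, any other scaling, GC trend removed or only title number 3048, and 2 to 5 with a library left out. The 31 by age became 0 without the filter, 19 with a mean of 5 FPKM and 15 to 31 with a library left out. Tnn, which passed the filter only through the E13.5 mutants, is among the 4 at E13.5 and across both ages. The causes were not tested. The lone E12.5 libraries and 2 libraries per genotype at E13.5 limit what could be called.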
